A study of Mus musculus with 21 samples.

Results

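The 8 genes described here, Slc4a1, Add2, Ermap, Rhag, Trim10, Klf1, Gata1 and Epor, encode red cell membrane proteins and erythroid regulators, and they were followed as 8 of the 45706 gene identifiers counted in 21 mouse RNA-seq libraries. They were picked by name from earlier results on these same libraries, in which the spleen CD11b+ cells of leukemic mice had higher values than controls. The spleen comparisons between genotypes are therefore given as values with no test. Each symbol matched exactly 1 identifier, and 8 of 8 passed the filter on low counts that left 19555 genes to be tested. Libraries came from 3 sorted fractions, with 7 libraries each: bone marrow (BM) LSK cells, BM CD11b+ cells and spleen CD11b+ cells. In each fraction there were 2 MxCre control libraries, 2 Ptpn11D61Y/+ control libraries and 3 libraries of leukemic stage 3 (S3) MxCre;Ptpn11D61Y/+ mice, which were terminally ill. MxCre mice carry an interferon-inducible Cre recombinase, whose induction reaches hematopoietic cells. Ptpn11D61Y/+ mice carry a mutant allele of Ptpn11, the gene of the phosphatase SHP2, that stays silenced by a Neo-Stop cassette without Cre. The S3 mice carry both alleles, so the mutant is switched on after induction and the mice develop a myeloproliferation resembling juvenile myelomonocytic leukemia. According to the study's methods all mice, controls included, received poly I:C, the inducer of the Mx promoter, although the sample labels list no treatment. The ages of the mice are not given in the labels.

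Erythroid cells arise from progenitors that become dependent on erythropoietin, are driven by a small set of transcription factors and finish by filling with hemoglobin under a specialised membrane skeleton. GATA1 is the central transcription factor of this lineage and is shared with megakaryocytes, mast cells, basophils and eosinophils, whereas KLF1 is a zinc finger factor that is largely restricted to erythroid cells. EPOR is the erythropoietin receptor, which signals through JAK2 and STAT5. SLC4A1, or band 3, is the anion exchanger that anchors the skeleton to the lipid bilayer, ADD2 is the beta subunit of adducin at the spectrin-actin junctions, RHAG is the Rh-associated glycoprotein and ERMAP is an erythroid membrane protein of the butyrophilin-like family. TRIM10 is a tripartite motif protein of terminally differentiating erythroblasts. Adult mouse erythropoiesis takes place in the marrow and, under stress, in the spleen, in islands built around macrophages. An LSK cell lacks lineage markers and displays Sca1 and cKit, and CD11b, encoded by Itgam, marks granulocytes, monocytes and macrophages, so neither gate selects erythroid cells.

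On GRCm38 the members are spread over 7 chromosomes, and all are protein coding. Slc4a1 lies at chr11:102348824-102366203 on the minus strand, Add2 at chr6:86028681-86124409 on the plus strand, Ermap at chr4:119175457-119190011 on the minus strand and Rhag at chr17:40811126-40840754 on the plus strand. Trim10 lies at chr17:36869574-36877833 on the plus strand, Klf1 at chr8:84901928-84905291 on the plus strand, Gata1 at chrX:7959260-7978071 on the minus strand and Epor at chr9:21958897-21963506 on the minus strand. Exons of Add2 overlap an antisense gene, Gm44089, that has no row in the count files, and whether the counting used strand is not given in the sources used here, so reads of the pair cannot be told apart.

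Promoter sequence of GRCm38.p6 from RefSeq was found for 7 of the 8 members, Slc4a1 being the exception. The core letters bound by GATA factors, AGATAA or TGATAA on either strand, stood within the 250 bases before the RefSeq transcript start of 5 of these 7 genes and of 16.6% of 32851 promoters. These 5 are shown because they are the members that hold this motif. In every line the capitals mark the match, read here as the reverse complement, and the sequence runs 5′ to 3′ on the strand of the gene.
Ermap, chr4:119190017-119190102, minus strand: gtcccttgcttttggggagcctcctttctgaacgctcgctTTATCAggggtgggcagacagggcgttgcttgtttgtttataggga
Rhag, chr17:40811078-40811125, plus strand: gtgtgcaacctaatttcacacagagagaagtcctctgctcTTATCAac
Trim10, chr17:36869371-36869456, plus strand: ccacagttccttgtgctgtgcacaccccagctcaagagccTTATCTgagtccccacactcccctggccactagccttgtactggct
Klf1, chr8:84901862-84901927, plus strand: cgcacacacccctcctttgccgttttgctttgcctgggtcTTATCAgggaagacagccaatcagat
Epor, chr9:21963585-21963670, minus strand: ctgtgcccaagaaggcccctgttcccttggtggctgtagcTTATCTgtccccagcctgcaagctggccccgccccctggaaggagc
Counted from that RefSeq start, which differs from the gene start of the positions above except for Trim10, the match began 67 bases upstream in Ermap, 31 in Rhag, 163 in Trim10, 80 in Klf1 and 54 in Epor. A CACCC-type motif, searched as CCNCNCCC on both strands, stood in the windows of Add2, Gata1 and Epor, against 45.9% of all promoters. The letters CAGCTG or CATCTG, an E-box core, stood in those of Klf1 and Epor, against 25.5%. These matches describe the sequence only.

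Library totals ran from 34992610 to 104509425 counts with a median of 69421661. The fractions were checked against their markers, summed here as CPM, counts divided by the library total and scaled to the same total in every library. Stem and progenitor markers (Kit, Ly6a, Cd34 and 5 others) summed to between 1542 and 2554 CPM in the LSK libraries and to between 29.0 and 440.9 in the CD11b+ libraries. Myeloid markers, led by S100a9 in all CD11b+ libraries, summed to between 19946 and 55434 CPM in 12 of the 14 CD11b+ libraries. The exceptions were the spleen libraries of Ptpn11D61Y/+ replicates 1 and 2, with sums of 4009.5 and 6215 CPM, near the LSK range of 3283 to 8123, and with 1576 and 1969 CPM of B cell markers. Late erythroid products (12 measured genes, mostly globin and heme genes) made up 162293 CPM of BM CD11b+ MxCre 2 and between 17738 and 134802 CPM of the other BM CD11b+ libraries, so the CD11b+ selection from marrow carried abundant red cell RNA. In bulk libraries, fewer cells of a type and less RNA per cell cannot be told apart.

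The replicates were not equally alike. Across all tested genes, the log2 CPM of BM CD11b+ MxCre 1 and 2 had a Pearson r of 0.876, against 0.988 for the Ptpn11D61Y/+ pair, and replicate 1 was most like spleen CD11b+ MxCre 2 (r of 0.901). BM CD11b+ S3 640 had an r of 0.868 with S3 815 and 0.935 with S3 540, and was most like the spleen library of its own animal (r of 0.957). Xist, which is transcribed from the inactive X of female mice, was read at 1 count in the LSK library labelled S3 540, against 2780 and 712 counts in the BM and spleen libraries of that number. It was read at 2834 counts in BM CD11b+ MxCre 2, against 9 in LSK and 4 in spleen of the same number, and at 4753 counts in spleen Ptpn11D61Y/+ 1, against 17 in LSK and 1 in BM. The same number may therefore stand for different mice, or labels may have been exchanged, and this was not tested. It bears on every value given by animal or group. The main results that rest on BM CD11b+ MxCre 1, S3 640 or the LSK library labelled 540 are given with and without them. The labels do not say whether control libraries came from separate mice, so p-values measure the spread between these libraries. The study's methods name more mice per genotype for the CD11b+ RNA than the control libraries analysed here, and the reason is not given in the sources used here.

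Each member varied widely over the 21 libraries. Levels are log2 CPM scaled by TMM, a normalization for library composition, with a prior count of 2 unless a scale per length is named. Slc4a1 ran from 1.02 in spleen CD11b+ Ptpn11D61Y/+ 2 to 12.04 in BM CD11b+ Ptpn11D61Y/+ 2. Of the 8 genes, 6 were highest in a BM CD11b+ library, while Add2 at 7.68 and Ermap at 8.70 were highest in spleen CD11b+ S3 640. Add2, Rhag and Trim10 had 0 counts in spleen CD11b+ MxCre 1, and 7, 40 and 43 counts in replicate 2.

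**Figure D1:**
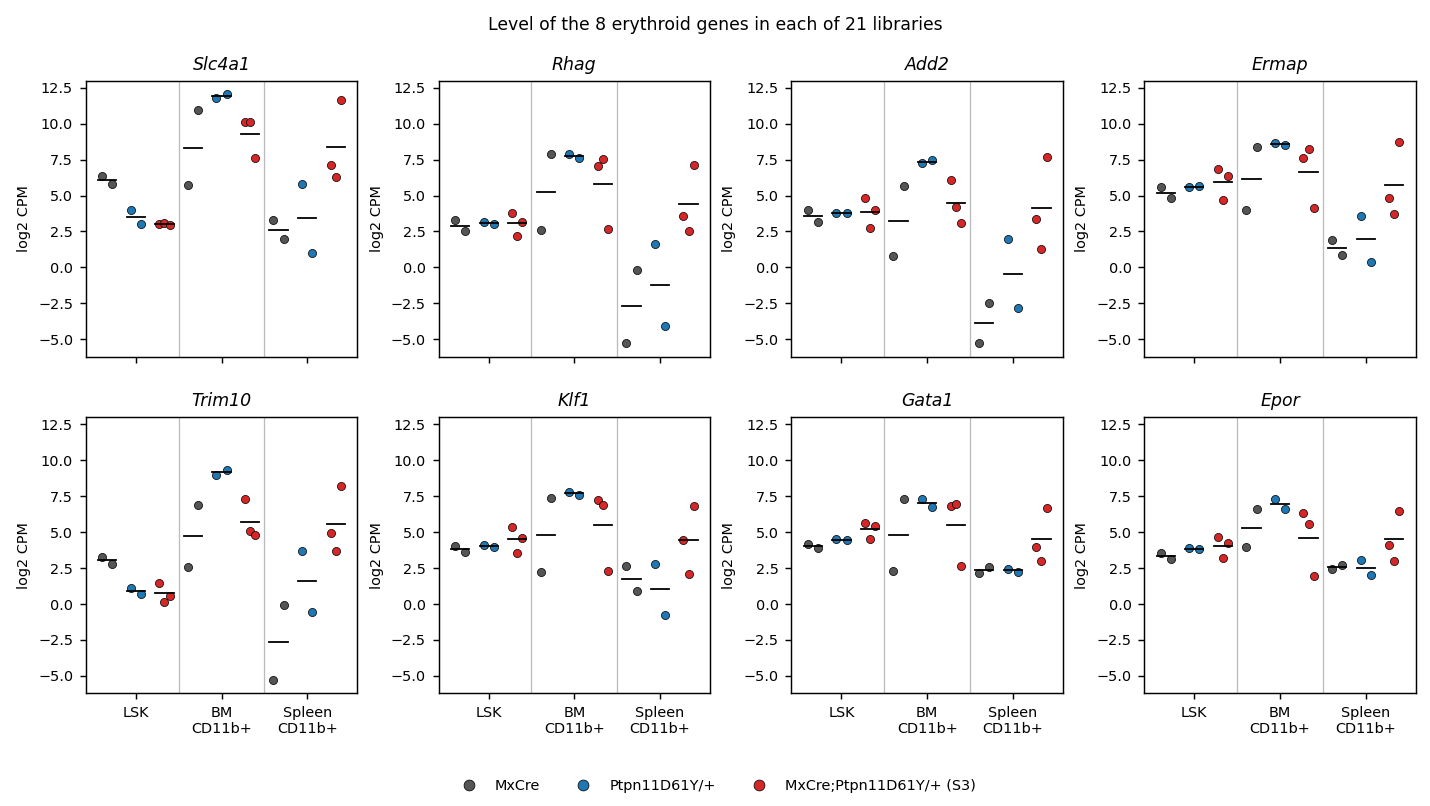
Level of each of the 8 genes (log2 CPM, TMM-scaled, prior count 2) in every library, with 1 point per library, grouped by fraction, coloured by genotype and with a bar at each group mean. BM CD11b+ libraries reached the highest values of 6 of the 8 genes, with BM CD11b+ MxCre 1 far below its group and S3 640 below its own (for Trim10 only just, at 4.78 against 5.08 in S3 815), while LSK values of Slc4a1 and Trim10 separated MxCre from the other genotypes.

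Which of the genes mark the CD11b+ fraction of control marrow rather than LSK cells was asked over the 4 BM CD11b+ and 4 LSK control libraries. In the edgeR quasi-likelihood fit over all 21 libraries, 6 of the 8 genes were higher in BM CD11b+ cells at a Benjamini-Hochberg adjusted p under 0.05, where 22.4% of the 19555 tested genes were higher. The median log2 difference of the 8 was 2.95, against -0.19 for all genes. The band 3 gene Slc4a1 stood at 6.35 and 5.84 log2 CPM in the LSK MxCre libraries and at 4.03 and 3.02 in the LSK Ptpn11D61Y/+ libraries. In BM CD11b+ cells it stood at 5.73 and 10.93 in MxCre and at 11.79 and 12.04 in Ptpn11D61Y/+. MxCre 1 lay within the LSK range and the other 3 BM libraries lay far above it. Slc4a1 rose by 6.08 (SE 1.37, adjusted p = 0.00225), which is 67.8-fold.

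Trim10 followed the same order. Its LSK levels were 3.29 and 2.79 in MxCre and 1.11 and 0.69 in Ptpn11D61Y/+, and its BM CD11b+ levels were 2.57 and 6.89 in MxCre and 9.001 and 9.36 in Ptpn11D61Y/+. Again only BM MxCre 1 overlapped the LSK libraries, and Trim10 rose by 5.60 (SE 1.30, adjusted p = 0.00279). Rhag, the Rh-associated glycoprotein gene, rose by 4.33 (SE 1.40, adjusted p = 0.0185) from LSK levels of 3.28, 2.51, 3.16 and 2.99 to BM levels of 2.64, 7.90, 7.89 and 7.59.

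Of the regulators, Klf1 differed by 3.11 (SE 1.15, adjusted p = 0.0352), Epor by 2.80 (SE 0.83, adjusted p = 0.0117) and Gata1 by 2.44 (SE 0.94, adjusted p = 0.0408). For the erythropoietin receptor the LSK control levels were 3.55, 3.13, 3.88 and 3.84 and the BM CD11b+ levels were 3.96, 6.60, 7.29 and 6.61, so its lowest BM value lay just above its highest LSK value. Ermap (2.57, SE 1.10, adjusted p = 0.0633) and Add2 (2.31, SE 1.22, adjusted p = 0.126) did not pass. Without BM CD11b+ MxCre 1 the differences were larger, at 6.54 for Slc4a1, 2.90 for Gata1 and 2.77 for Add2, and 7 members were called higher, with 19.2% of genes. Without MxCre 2 only 2 were, with 18.6% of genes, and Slc4a1 still differed by 3.94 and Trim10 by 3.88. The count was 3 with library size alone, which called 10.3% of genes higher and 46.6% lower against 22.4% and 26.4% here, 3 without the count filter (12.8% higher) and 3 with a block by animal or number (21% higher). Over 15 alternatives Slc4a1 and Trim10 kept their calls in all, while Gata1 lost its call in 12, Klf1 in 10, Rhag in 7 and Epor in 3.

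Levels can be compared between genes only per length, and the order of the 8 on that scale differed between fractions. In BM CD11b+ cells Slc4a1 was the highest member in all 3 genotypes, with a mean of 9.62 ± 0.18 log2 CPM per kb of exon in Ptpn11D61Y/+ (SD, n = 2), where Trim10 came next at 8.01 ± 0.25 and Klf1 at 7.10 ± 0.14. The lowest was Add2 at 4.02 ± 0.11. Rhag, Ermap, Epor and Gata1 lay between, from 6.51 down to 5.76, and the gaps from Ermap to Epor and from Epor to Gata1 were smaller than the larger SD of the pair. In MxCre and S3 marrow the SDs ran from 1.38 to 3.72, and every gap between neighbours above Add2 was smaller than the larger SD of the pair.

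In LSK cells the order depended on genotype. In MxCre, Slc4a1 led at 3.80 ± 0.36 log2 CPM per kb (SD, n = 2), followed by Klf1 at 3.24 ± 0.31. In Ptpn11D61Y/+ LSK cells Klf1 led at 3.41 ± 0.13 and Slc4a1 was the 6th of 8 at 1.23 ± 0.72. In S3 LSK cells Gata1 (3.91 ± 0.61, n = 3), Klf1 (3.88 ± 0.92) and Ermap (3.55 ± 1.13) led within their spread. By its mean Slc4a1 was again the 6th at 0.71 ± 0.06, and Trim10 was the lowest at -0.41 ± 0.67. Add2, at 0.51 ± 1.02, was within its spread of both. In both control spleen groups Epor had the highest mean, at 1.58 ± 0.18 in MxCre and 1.52 ± 0.74 in Ptpn11D61Y/+. Klf1 in MxCre (1.16 ± 1.20) and Slc4a1 in Ptpn11D61Y/+ (1.12 ± 3.38) were within their spread of it. Slc4a1 had the highest mean in S3 spleen, at 6.09 ± 2.89, with Trim10 (4.44 ± 2.33) and Klf1 (3.84 ± 2.39) among the genes within its spread.

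Within LSK cells the 8 genes did not move together. Slc4a1 and Trim10 were lower in every S3 library than in either MxCre library, and Gata1 was higher in every one. An earlier result on these data that included the S3 against MxCre contrast was known. Slc4a1 stood at 6.35 and 5.84 log2 CPM in MxCre and at 3.01, 3.06 and 2.94 in S3 540, 815 and 768. Trim10 stood at 3.29 and 2.79 in MxCre and at 1.49, 0.18 and 0.59 in S3. Gata1 stood at 4.19 and 3.88 in MxCre and at 5.67, 4.51 and 5.40 in S3. All 3 genes therefore separated the genotypes without overlap, a pattern that 28.9% of tested genes had in the lower direction and 29.1% in the higher. At 2 and 1 of the 8 members in these directions, separation was no more frequent among them than among all genes. Slc4a1 hardly varied among the 3 S3 libraries (SD 0.06), whereas Trim10 (SD 0.67) and Gata1 (SD 0.61) did.

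In the fit over 21 libraries none of the 8 genes passed in this comparison, where 0.0307% of tested genes did. The differences were -3.12 for Slc4a1 (SE 1.45, adjusted p = 1, unadjusted p = 0.0466), -2.21 for Trim10 (SE 1.38) and 1.23 for Gata1 (SE 1.20). Only Slc4a1 was under an unadjusted p of 0.05, and DESeq2 also called none of the 8, with 0.738% of genes called. That fit takes its spread from all 21 libraries, 14 of them CD11b+. When the 7 LSK libraries were fitted alone, an alternative chosen after seeing the data, Slc4a1 fell by 3.12 (adjusted p = 0.00302), Trim10 fell by 2.21 (adjusted p = 0.00785) and Gata1 rose by 1.22 (adjusted p = 0.0459), against 15.0% of genes lower and 16.3% higher. Ermap, Klf1, Epor, Add2 and Rhag differed by between 0.27 and 0.96 in the 21-library fit and were called in neither. Without the LSK library labelled 540, which had the highest Gata1, Klf1 and Ermap of the S3 group, the differences were -3.12 for Slc4a1, -2.68 for Trim10 and 0.99 for Gata1. Xist was read at 39460 and 88850 counts in S3 815 and 768 and at 9 to 17 in the 4 control LSK libraries, so these S3 and control libraries also differ in this sign of sex. The S3 library labelled 540, with 1 count, had the highest value of the X-linked Gata1. The part of sex in these differences was not tested.

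The other control genotype also had low values of this pair. In Ptpn11D61Y/+ LSK cells, which carry no Cre, Slc4a1 stood at 4.03 and 3.02 and Trim10 at 1.11 and 0.69, all below both MxCre libraries, while Ermap, Gata1 and Epor lay slightly above both. Of tested genes 29.4% were lower without overlap and 28.3% higher, shares near those of the members, at 2 and 3 of 8. In the 21-library fit Slc4a1 differed by -2.51 (SE 1.64) and Trim10 by -2.16 (SE 1.58), the other 6 by between 0.14 and 0.51, and 0 of 8 were called or under an unadjusted p of 0.05, where 0.0614% of genes were called. DESeq2 called none of the 8, with 0.57% of genes called. With the 7 LSK libraries alone Slc4a1 fell by 2.49 (adjusted p = 0.0423, against 1.31% of genes lower) and Trim10 was at -2.15 (adjusted p = 0.0688). Since both contrasts share the 2 MxCre libraries, they are not separate evidence of a low Slc4a1 in S3.

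Slc4a1 and Trim10, a pair chosen after their LSK values were seen, were also set against the other 6 members within each library as a description, as the mean log2 CPM of the pair minus that of the 6. Gene lengths shift this difference alike in every library, so it is compared between libraries only. It was 0.71 and 0.79 in the MxCre LSK libraries, -1.61 and -2.26 in Ptpn11D61Y/+ and -2.95, -1.87 and -2.86 in S3 540, 815 and 768. Both MxCre values lay above those of the other 5 LSK libraries, which restates the levels given above. Slc4a1 made up 27.7% and 27.9% of the CPM per kb summed over the 8 genes in MxCre LSK cells, 7.13% and 3.87% in Ptpn11D61Y/+ and 1.74%, 5.44% and 2.38% in S3. In the 7 BM CD11b+ libraries its share ran from 33.9% to 60.0%, including 33.9% in MxCre 1 and 60.0% in S3 640, where the summed level was low.

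Late erythroid products also had their highest LSK sums in MxCre. Their sum was 3043 and 1883 CPM in the MxCre LSK libraries, 1054 and 969.8 in Ptpn11D61Y/+ and 1162, 521 and 746 in S3 540, 815 and 768. Hbb-bs, the adult beta globin gene, was the most abundant of them in MxCre LSK cells, at 978 and 521 CPM, and Car2, a carbonic anhydrase gene, in the other 5 libraries. Hbb-bs was the only one of the 12 measured genes of this list called in S3 against MxCre LSK cells, where it fell by 5.13 (SE 0.82, adjusted p = 0.0356), and it is named after its values were seen. It was between -5.58 and -4.59 with any 1 LSK library of either group left out, and the call was lost each time (edgeR adjusted p of 0.0862 to 0.549). The median of the list was -1.77, with 10 of 12 genes below 0, against 0.01 for all genes. In Ptpn11D61Y/+ against MxCre LSK cells it was -1.87, with 8 of 12 below 0 and none called. No marker of this list was at 0 in any LSK library. Other lists moved as well. In S3 against MxCre LSK cells 0 of 7 B cell and 3 of 7 T cell markers were above 0, with medians of -0.98 and -0.50. Of the myeloid markers 5 of 9 were (median 0.31), and of the stem and progenitor markers 1 of 8 (-0.81). For Ptpn11D61Y/+ against MxCre the counts were 1, 1, 3 and 6 in that order, with medians of -0.86, -0.96, -1.76 and 0.26. The part of the late products and of these lists in the lower Slc4a1 and Trim10 was not tested.

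**Figure D2:**
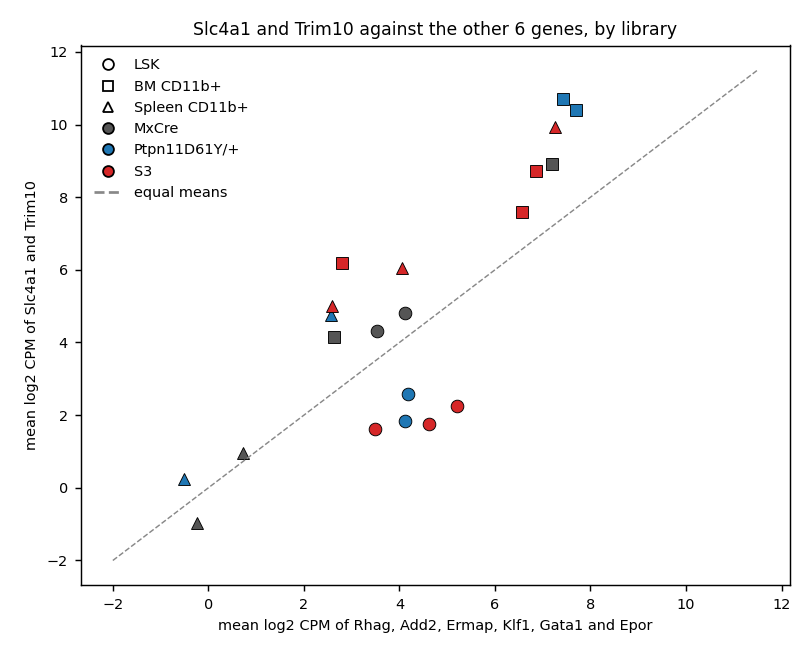
Mean level of Slc4a1 and Trim10 (y axis) against the mean level of the other 6 members (x axis), both in log2 CPM, with 1 point per library, coloured by genotype and shaped by fraction. The 2 MxCre LSK libraries, at 4.82 and 4.31 on the y axis, lay higher against the dashed line of equal means than the other 5 LSK libraries, and the place of that line itself depends on gene lengths.

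In BM CD11b+ cells the question was whether leukemic marrow differed from MxCre marrow, and the 8 genes gave no difference larger than the spread between libraries. Slc4a1 stood at 5.73 and 10.93 in MxCre and at 10.14, 10.09 and 7.62 in S3 540, 815 and 640. Gata1 stood at 2.29 and 7.29 in MxCre and at 6.79, 6.98 and 2.64 in S3, and Epor at 3.96 and 6.60 in MxCre and at 6.30, 5.60 and 1.93 in S3. MxCre 1 was far below MxCre 2 for each gene, S3 640 was the lowest S3 library for each (for Trim10 at 4.78, beside 5.08 in S3 815), and none of the 8 genes separated the groups, where 5.74% of tested genes were higher and 5.49% lower without overlap. The fitted differences ran from -0.37 to 0.28, whereas the differences of mean log2 CPM ran from -0.67 for Epor to 1.25 for Add2 with 7 of 8 above 0, so the sign of several genes, Slc4a1 at 0.95 among them, turned with the kind of mean. In the fit 0 of 8 genes were called or under an unadjusted p of 0.05, and edgeR called 0% of all genes, with 3022 genes under an unadjusted p of 0.05 and 968 (5.19%) called by DESeq2. With both low libraries left out, an alternative chosen after seeing the data, the differences ran from -0.81 for Slc4a1 to -0.21 for Add2. Which library was left out decided the sign: the 8 genes lay between -1.27 and -0.66 without MxCre 1, between 1.50 and 4.33 without MxCre 2 and between 0.14 and 0.73 without S3 640.

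The Ptpn11D61Y/+ marrow was higher than the MxCre marrow in fitted values for all 8 genes, from 0.73 to 3.22, without any passing the test. Trim10 stood at 9.001 and 9.36 against 2.57 and 6.89 in MxCre, a difference of 3.22 (SE 1.65, adjusted p = 0.247). Add2 stood at 7.29 and 7.44 against 0.77 and 5.65, a difference of 2.67, and Slc4a1 differed by 1.95. The groups did not overlap for 6 genes, all except Rhag and Gata1, but 38.7% of tested genes were higher without overlap in this comparison. edgeR called 0% of genes, with 4419 under an unadjusted p of 0.05, none of them a member, and DESeq2 called 1884 genes (10.8%) and no member. Without MxCre 1 the difference was 2.31 for Trim10, 1.74 for Add2, 1.003 for Slc4a1, -0.13 for Rhag and -0.21 for Gata1. Without MxCre 2 it was 6.64 for Trim10, 6.64 for Add2 and 6.21 for Slc4a1. All 7 B cell markers and 6 of 7 T cell markers were above 0 in this contrast (medians 1.10 and 1.34), with none called. All 9 red pulp and island macrophage markers were below 0. Without MxCre 1 the B and T cell medians were 0.26 and 0.53. The part of these cells in the levels of the 8 genes was not tested.

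**Figure D3:**
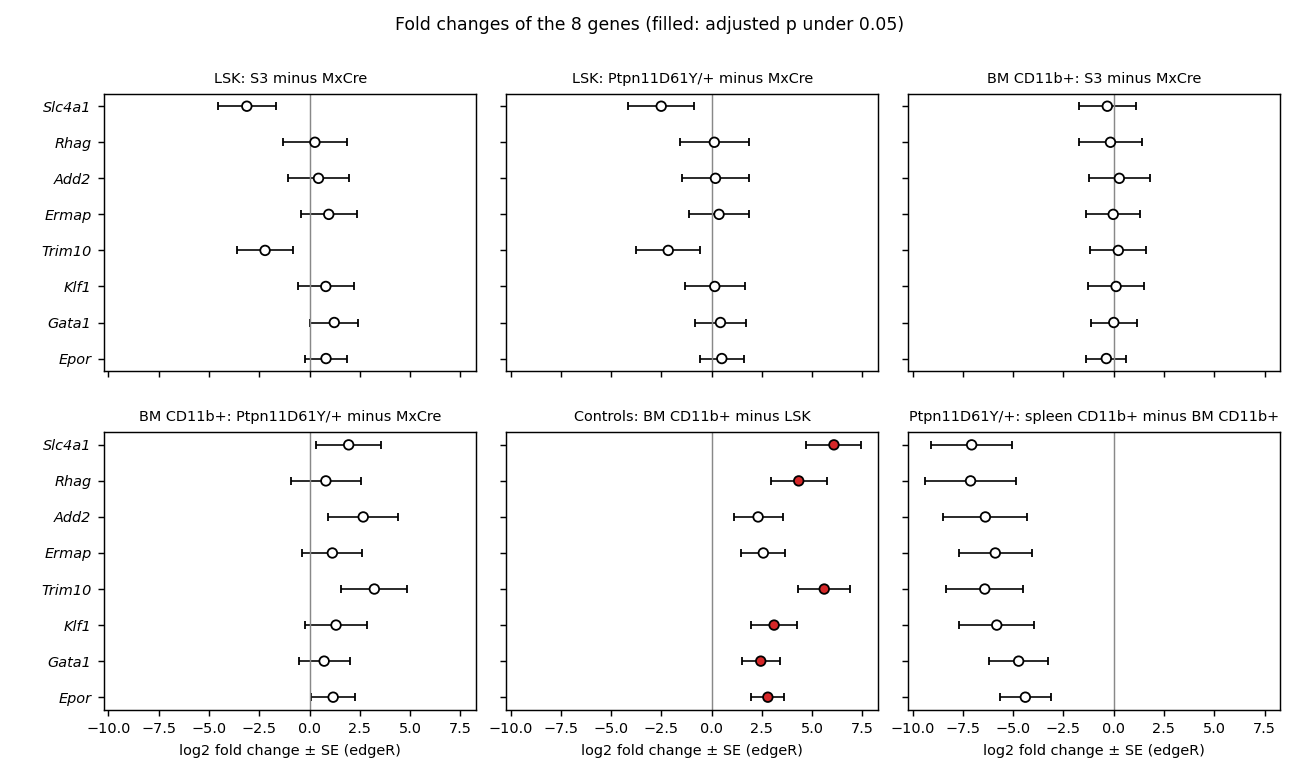
Log2 fold change of the 8 genes (x axis) in 6 of the tested comparisons, 1 panel each, with bars of 1 SE from the edgeR fit over 21 libraries and filled points where the adjusted p was under 0.05. Filled points appear for 6 genes between BM CD11b+ and LSK controls and in no other panel. All 8 genes lie at or below -4.39 between spleen and BM CD11b+ cells of Ptpn11D61Y/+ mice. Low control spleen values were favoured by the choice of members, so that panel is a description.

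In S3 mice, Slc4a1 and Trim10 were higher in all 3 BM CD11b+ libraries than in any of the 3 LSK libraries, as were 18.4% of tested genes. Slc4a1 rose by 6.66 (SE 1.62, adjusted p = 0.00800), from 3.01, 3.06 and 2.94 to 10.14, 10.09 and 7.62. Trim10 rose by 5.35 (SE 1.49, adjusted p = 0.0161), from 1.49, 0.18 and 0.59 to 7.31, 5.08 and 4.78. Those 2 of 8 were called, where 14.4% of genes were called higher, so the count is not far above the share of all genes. Rhag differed by 3.56 (SE 1.56, adjusted p = 0.0971), and Klf1, Epor, Ermap, Gata1 and Add2 by between 0.91 and 1.84, with BM S3 640 below or within the LSK range for each of these 6. Without BM S3 640 the differences were 7.12 for Slc4a1, 5.75 for Trim10 and 4.12 for Rhag, and 3 members were called, with 17.2% of genes. Without the LSK library labelled 540 they were 6.66, 5.82 and 4.01, with 2 called and 8.11% of genes. The Trim10 call was lost without BM S3 540, LSK S3 815 or LSK S3 768.

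Whether the S3 against MxCre difference itself changed between LSK and BM CD11b+ cells was tested as an interaction. It was 2.80 for Slc4a1 (SE 2.05, adjusted p = 0.730) and 2.44 for Trim10, and between -1.23 and -0.17 for the other 6. With 1 library left out it ran from 1.84 (without BM MxCre 1) to 7.04 (without BM MxCre 2) for Slc4a1, and from 1.18 (without BM S3 540) to 5.84 (without BM MxCre 2) for Trim10. None of the 8 passed or was under an unadjusted p of 0.05, and edgeR called 0% of all genes, with 1587 under an unadjusted p of 0.05 and 141 (0.78%) called by DESeq2. So the low Slc4a1 and Trim10 of S3 LSK cells was not shown to be particular to LSK cells.

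In Ptpn11D61Y/+ mice the 8 genes had lower values in the spleen than in the BM CD11b+ libraries. The members were picked for S3 spleen values above controls, so low control spleen values were favoured by the choice, and what follows is a description whose calls support nothing. Slc4a1 stood at 11.79 and 12.04 in BM CD11b+ cells and at 5.80 and 1.02 in spleen CD11b+ cells. Klf1 stood at 7.81 and 7.61 in BM and at 2.79 and -0.73 in spleen. Epor stood at 7.29 and 6.61 in BM and at 3.03 and 1.99 in spleen. All 8 genes were lower in both spleen libraries than in both BM libraries, as were 31.2% of tested genes, and spleen replicate 1 was above replicate 2 for each. The fitted differences ran from -7.12 for Rhag (SE 2.26) and -7.06 for Slc4a1 (SE 2.03) to -4.39 for Epor (SE 1.26). Without spleen Ptpn11D61Y/+ 1, whose Xist count stood apart, they were -12.64 for Rhag, -10.95 for Slc4a1 and -10.50 for Add2, and the genes called among all tested fell from 722 to 0, against 69 without spleen replicate 2 and 4 and 40 without BM replicate 1 and 2. The Rhag and Add2 values without spleen replicate 1 rest on 2 and 7 counts in spleen replicate 2 and are no bounds. With adjusted p-values of 0.0619 to 0.0949, 0 of 8 passed in the 21-library fit, in which 2.46% of genes were called lower, though all 8 were under an unadjusted p of 0.05. DESeq2 called all 8 lower, with 7.99% of genes, and so did edgeR on these 4 libraries alone, with 14.3% of genes, calls on values that are not independent of the choice of members. These spleen libraries are those with few myeloid transcripts, and the part of that in the result was not tested.

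In spleen CD11b+ cells the genotypes are described without a test, because the 8 genes were picked on those values. In S3 540, 815 and 640 Slc4a1 stood at 7.15, 6.31 and 11.67, against 3.29 and 1.97 in MxCre. Rhag stood at 3.58, 2.53 and 7.14, against 0 and 40 counts in MxCre, and Klf1 at 4.45, 2.06 and 6.85, against 2.62 and 0.93 in MxCre. S3 640 was the highest spleen library for every member, and S3 815 lay within the MxCre range for Klf1. The 7 members other than Klf1 were higher in all S3 than in all MxCre libraries, where 20.2% of tested genes were, and 4 members (Slc4a1, Ermap, Rhag and Gata1) were higher in all S3 than in all Ptpn11D61Y/+ libraries, where 9.5% were. The fitted log2 difference of S3 from MxCre ran from 9.80 for Add2 to 2.70 for Epor. It depended on 1 mouse: without S3 640 it was 6.28 for Add2, 4.02 for Slc4a1, 1.70 for Klf1, 1.19 for Gata1 and 1.09 for Epor. The fitted difference of Add2 rests on 0 and 7 counts in the MxCre libraries and is no bound. Ptpn11D61Y/+ and MxCre spleens overlapped for all 8 genes, with differences from -0.10 to 4.60, where 34.5% of genes were higher without overlap. Markers of other cells moved too. All 7 B cell markers were above 0 in S3 against MxCre spleen (median 1.30) and below 0 in S3 against Ptpn11D61Y/+ (median -1.84), with sums of 168 and 57.9 CPM in MxCre, 1576 and 1969 in Ptpn11D61Y/+ and 768, 654 and 86.9 in S3. All 9 myeloid markers were above 0 in S3 against Ptpn11D61Y/+ (median 1.75), and 4 of 9 in S3 against MxCre (median -0.08). Their part in these differences was not tested.

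The 3 S3 animals with both CD11b+ fractions, taken by their labels, did not share a direction between marrow and spleen. Whether the BM and spleen labels of S3 640 were exchanged was not tested. Their Xist counts, at 9 and 1, cannot tell these 2 libraries apart. In S3 540 all 8 genes were lower in spleen than in BM, with a median difference of -2.81 and a range of -3.51 to -2.21. In S3 815 all 8 were lower, with a median of -3.90 and a range of -5.02 to -1.40. In S3 640 all 8 were higher in spleen, with a median of 4.49 and a range of 3.42 to 4.61, while the median over all tested genes was between 0 and 0.20 in each animal. Klf1 shows the size of this contrast, at 7.26 in BM and 4.45 in spleen of S3 540, at 6.86 and 2.06 in S3 815 and at 2.30 and 6.85 in S3 640. Averaged over the animals, the fitted spleen minus BM differences of -1.05 to 1.21 describe none of them. Summed CPM of late erythroid products was lower in spleen than in BM in S3 540 (12778 against 56406) and 815 (13094 against 94433) and higher in S3 640 (29928 against 17738). Red pulp and island macrophage markers were higher in spleen than in BM in all 3 animals, at 4585 against 899, 5274 against 1109 and 3609 against 2316 CPM, so that list did not turn with the 8 genes. B cell markers turned the other way, at 768 against 419, 654 against 517 and 86.9 against 344 CPM, as did stem and progenitor markers, at 209 against 73.5, 440.9 against 230.0 and 29.0 against 86.9. Other lists turned with the 8 genes. Myeloid markers were at 44696 against 55434, 20162 against 47386 and 22655 against 19946 CPM, mast cell and basophil markers at 509 against 805, 236 against 421 and 314 against 273, and megakaryocyte markers at 69.5 against 90.4, 59.9 against 152 and 104 against 56.5. The part of these cells in the levels of the 8 genes was not tested.

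**Figure D4:**
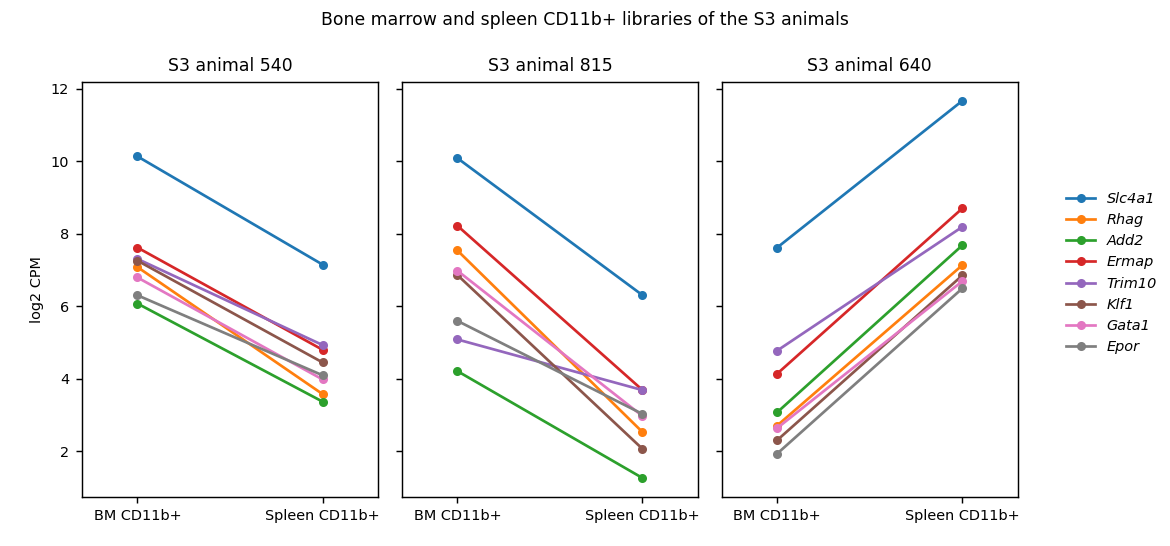
Level of the 8 genes (log2 CPM) in BM and spleen CD11b+ cells of S3 animals 540, 815 and 640. Lines, 1 per gene, join the libraries labelled with the same animal. All 8 lines fall from BM to spleen in 540 and 815, and all 8 rise in 640, by 3.42 to 4.61.

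Other genes of the erythroid membrane and skeleton moved in the same direction between control LSK and BM CD11b+ cells. Of 20 measured genes of that list, 16 rose and none fell, with a median of 3.32, where 22.4% of all genes rose and 26.4% fell. Without BM MxCre 2 only 7 rose and 1 fell, where 18.6% of genes rose, and 18 rose without BM MxCre 1 (19.2% of genes). With library size alone 9 rose (10.3% of genes), without the count filter 10 (12.8%) and with the block by animal or number 10 (21%). The actin-bundling protein gene Dmtn rose by 5.72 (SE 1.27, adjusted p = 0.00201) and the Rh antigen gene Rhd by 5.27 (SE 1.39, adjusted p = 0.00619). Of 12 late erythroid products 9 rose and none fell, with a median of 6.12 and with the alpha globin genes Hba-a2 at 10.79 and Hba-a1 at 9.77 and Hbb-bs at 9.07 in the lead. The alpha globin genes are near-identical copies, and reads may be split between them. In S3 mice 5 of 20 membrane genes and 8 of 12 late products rose in the same contrast, where 14.4% of all genes rose, and none fell. Without the LSK library labelled 540 these counts were 2 and 7, with 8.11% of genes, and without BM S3 640 they were 7 and 9, with 17.2%.

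Erythroid regulators other than Klf1 and Gata1 did not share one direction. Of 18 measured, 3 rose and 5 fell between control LSK and BM CD11b+ cells, shares near the 22.4% and 26.4% of all genes, with a median of 0.28. Gata2, the factor that GATA1 replaces as erythroid cells mature, fell by 6.95 (SE 0.85, adjusted p = 1.74e-05), and the cell cycle factor gene E2f2 rose by 4.41 (SE 0.58, adjusted p = 3.25e-05). The corepressor gene Cbfa2t3 fell by 2.25 (SE 0.35, adjusted p = 1.47e-04). The sign of the regulator median turned with the setting. It was 0.65 without BM MxCre 1, -0.90 without BM MxCre 2, -0.69 with library size alone and -0.02 with the block by animal or number. With library size alone 1 regulator rose and 6 fell, where 10.3% and 46.6% of genes did. Of 15 genes of erythropoietin receptor signalling 5 rose and 3 fell, where 22.4% and 26.4% of all genes did, among them Bcl2l1, encoding the survival protein BCL-XL, which rose by 4.12 (SE 0.53), Podxl, which fell by 4.04 (SE 1.61, adjusted p = 0.0483), and Stat5a, which fell by 2.33 (SE 0.28). With library size alone 4 signalling genes rose and 7 fell, where 10.3% and 46.6% of genes did. Without the count filter 5 rose and 1 fell, where 12.8% and 16.9% did. The median of this list was 0.13 in the main fit and -0.84 with library size alone. In S3 mice 1 regulator rose and 5 fell, and 6 signalling genes rose and 1 fell, where 14.4% of all genes rose and 12.7% fell. Without BM S3 640, 3 regulators rose and 4 fell, and 5 signalling genes rose and 2 fell, where 17.2% of genes rose and 19.8% fell. Without the LSK library labelled 540, 1 regulator rose and 4 fell, and 3 signalling genes rose and 1 fell, where 8.11% rose and 7.05% fell.

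Between spleen and BM CD11b+ cells of Ptpn11D61Y/+ mice, 5 of the 20 membrane genes (Tfrc, Stom, Epb41, Cldn13 and Icam4) and 8 of the 12 late products fell and none rose, where 2.46% of all genes fell and 1.23% rose, the membrane median being -6.38. With either spleen library left out no gene of these 2 lists was called. These erythroid lists, like the members, were chosen with earlier results of these data known, so their calls here are descriptions that support nothing. Both spleen libraries had few myeloid transcripts, and the part of that was not tested. Among regulators Gata2 rose by 4.24, and Myb, Foxo3, Nfe2 and E2f2 fell, while among the signalling genes Bcl2l1 alone passed the test, where it fell by 3.59. These calls were lost when any 1 of the 4 libraries was left out, except that of Nfe2 without spleen replicate 2. The 5 membrane genes, the 5 regulators and Bcl2l1 are named after their values were seen. In both BM CD11b+ genotype contrasts and in the interaction no gene of any of the 12 lists was called by edgeR. With all libraries the most abundant membrane and regulator genes differed by -0.64 to 0.41 between S3 and MxCre marrow. Epb41 was at -0.05, Add1 at 0.14, Stom at 0.41, Nfe2 at -0.07, Lmo2 at 0.08 and Ldb1 at -0.64. Of the signalling genes Ptpn6 was at -0.16, Inpp5d at -0.23 and Pim1, encoding a kinase induced by STAT5, at -2.09 (adjusted p = 0.207), and the globin genes were at -1.07 for Hbb-bs, -0.94 for Hba-a1 and -1.04 for Hba-a2. Without BM MxCre 1 the S3 against MxCre median went from -0.04 to -0.95 for the membrane list and from 0.07 to -0.56 for regulators. For signalling genes it went from -0.03 to 0.31 and for late products from -0.55 to -1.38. In Ptpn11D61Y/+ against MxCre marrow all 20 membrane genes were above 0, with a median of 1.57, and of 0.90 without MxCre 1. In LSK cells neither genotype contrast had a called membrane, regulator or signalling gene, and the medians of these lists lay between -0.14 and 0.15.

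**Figure D5:**
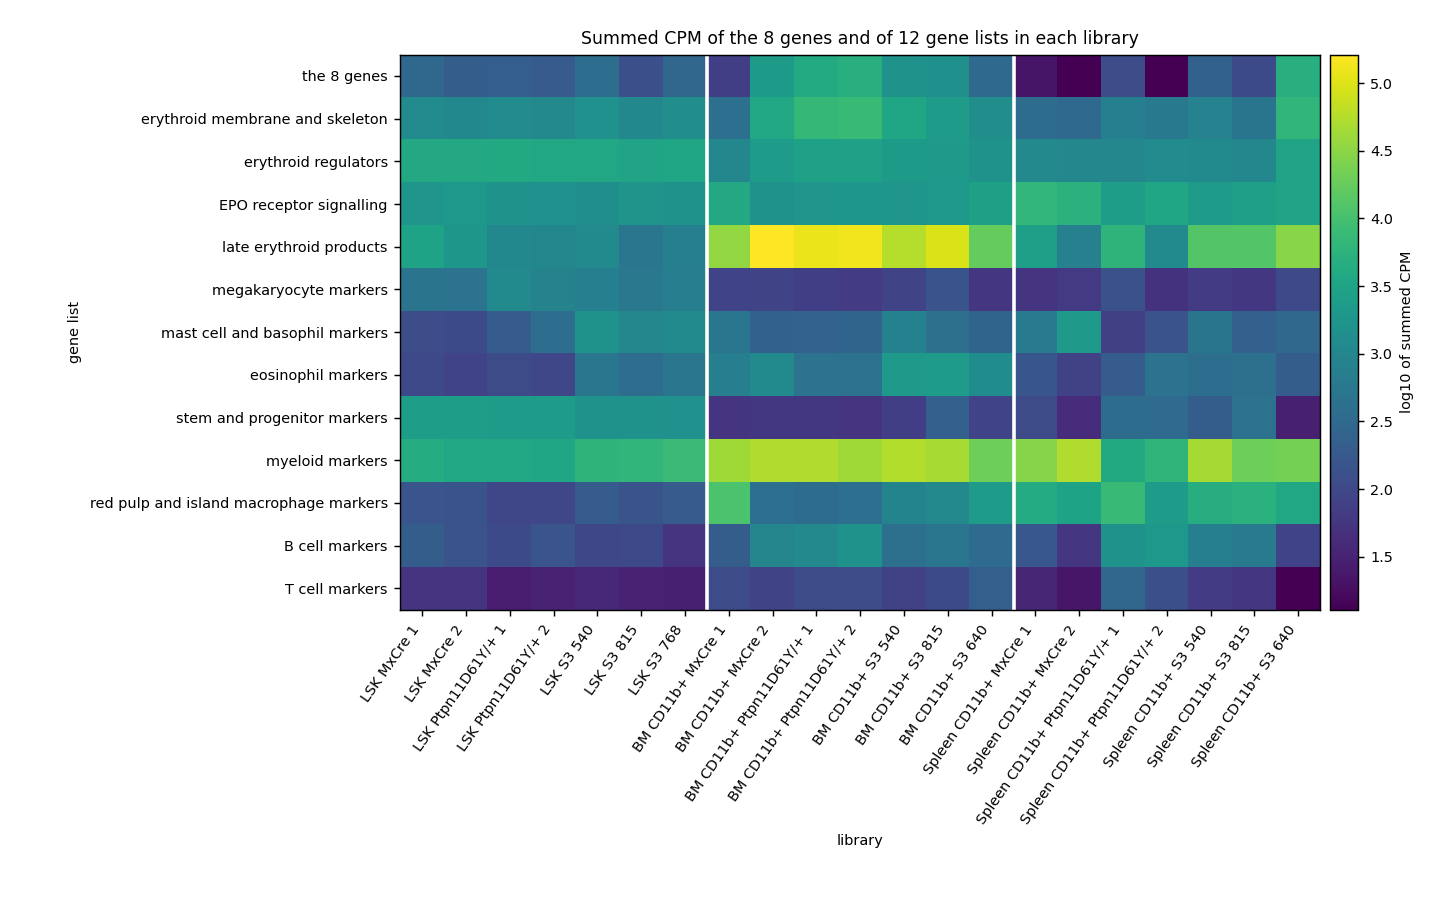
Heat map of the summed CPM of the 8 genes and of the 12 gene lists (y axis) in each of the 21 libraries (x axis), coloured by the log10 of the sum, with white lines between the fractions. In BM CD11b+ cells MxCre 1 is low for the 8 genes (75.2 CPM, against 2240 in MxCre 2) and high for red pulp and island macrophage markers (11094 CPM, against 403).

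Markers of other cell types moved with some of these results. BM CD11b+ MxCre 1, low in the 8 genes, had 11094 CPM of red pulp and island macrophage markers, led by C1qa at 4382 CPM, against 364 to 2316 CPM in the other 6 BM libraries, and none of the 9 markers was at 0. S3 640, the other low BM library, had 2316 CPM. All 9 macrophage markers were below 0 in S3 against MxCre marrow (median -2.72) and in Ptpn11D61Y/+ against MxCre marrow (median -4.07), with none called, and the 3 most abundant, Hmox1, C1qa and Vcam1, were at -2.16, -2.19 and -3.58 in the former. Without MxCre 1 the medians were 1.68 and -0.26, so the direction in S3 against MxCre turned on that library. Their part in the levels of the 8 genes was not tested. Between control LSK and BM CD11b+ cells 8 of the 9 rose, where 22.4% of all genes did, with Cd5l at 8.92, C1qa at 6.35 and Hmox1 at 5.17 and a median of 4.26. Without MxCre 1 they were at 6.56, 4.11 and 3.23, the median was 2.90, and 7 rose and 1 fell, where 19.2% and 21.4% of genes did.

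Cells that share Gata1 with erythroid cells were followed in the same way. Mast cell and basophil markers summed to 118 and 107 CPM in MxCre LSK cells, to 204 and 385 in Ptpn11D61Y/+ and to 1646, 968 and 1150.4 in S3 540, 815 and 768, led by Prss34 in the last 2 genotypes, and all 8 were above 0 in S3 against MxCre (median 3.13) with none called. Eosinophil markers, led by Prg2, summed to 105 and 85.1 CPM in MxCre LSK cells, to 115 and 96.3 in Ptpn11D61Y/+ and to 518, 369 and 523 in S3. Megakaryocyte markers, led by Itga2b, summed to 495 and 470.0 CPM in MxCre, to 1149 and 884 in Ptpn11D61Y/+ and to 756, 571 and 727 in S3, and their median was 1.27 in S3 against MxCre. No marker of these 3 lists was at 0 in an LSK library. Gata1 was highest in S3 540, as was the mast cell and basophil sum, and the part of these cells in the Gata1 level was not tested. From control LSK to BM CD11b+ cells, where Gata1 rose and where 22.4% of all genes rose and 26.4% fell, the megakaryocyte genes Gp6 (-4.41) and Itga2b (-3.79) were among 5 of 9 that fell, and 6 of 8 mast cell and basophil genes fell, Cpa3 by 6.49 and Tpsb2 by 6.33, while Hdc rose by 3.95. Eosinophil genes rose in 6 of 8 cases, led by Ccr3 at 6.21, Ear1 at 4.89 and Prg3 at 4.49. Among the BM CD11b+ libraries Gp6, Tpsb2, Cma1 and Il5ra were among the markers at 0 in at least 1.

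The remaining lists also differed between control LSK and BM CD11b+ cells, where 22.4% of all genes rose and 26.4% fell. There 7 of 8 stem and progenitor genes fell, led by Mecom at -10.06, Meis1 at -6.99 and Procr at -6.80, and 7 of 9 myeloid genes rose, led by Ly6g at 9.74, S100a9 at 7.42 and S100a8 at 6.81. All 7 B cell genes rose, led by Vpreb3 at 5.59, Pax5 at 4.77 and Ebf1 at 4.02, and 6 of 7 T cell genes did, led by Cd3d at 5.81, Cd3g at 5.05 and Cd3e at 4.69, although BM MxCre 1 had 0 counts of Cd3e, Cd3g and Cd8a. Without BM MxCre 2 only 3 T cell genes rose and 1 fell, and their median went from 4.496 to -1.01. With the block by animal or number 3 T cell genes rose, where 21% of genes did, with a median of 3.06. In Ptpn11D61Y/+ against MxCre LSK cells the neutrophil gene Ly6g fell by 8.03 (SE 1.34, adjusted p = 0.0334), the only listed gene called there, and it is named after its values were seen. It was between -9.75 and -7.33 with any 1 of the 4 libraries left out, and the call was lost each time.

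The 8 genes rose and fell together over CD11b+ libraries and less so over LSK libraries. The 28 pairwise Pearson correlations of log2 CPM ran from 0.791 to 0.987 over the 14 CD11b+ libraries, with a median of 0.934. Over the 7 LSK libraries they ran from -0.701, for Slc4a1 with Gata1, to 0.993, with a median of 0.769, and Slc4a1 with Trim10 had 0.932. These points share groups, library composition and the 2 low BM libraries, so the values are descriptions. The members were picked for higher values in S3 spleen, and spleen libraries are among the 14. High correlations over CD11b+ libraries were therefore favoured by the choice, as was their contrast with LSK cells. Of single members, Rhag was closest to the mean of the other 7 over 21 libraries (r of 0.958) and Slc4a1 the least close (0.849).

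Outside the lists, the genes most like the mean of the 8 over the 21 libraries, counting those whose mean was not below 0 on that scale, were Phyhip (r of 0.978), Tspan8 (0.969), Btnl10 (0.968), Sowaha (0.963), Gfap (0.962), Slc38a5 (0.953), Slc25a51 (0.944) and Abcb10 (0.937). Phyhip and Gfap were low, at means of 0.54 and 0.44 log2 CPM, while Slc25a51, a mitochondrial carrier gene, was at 6.50 and Abcb10, a mitochondrial transporter gene of heme-forming cells, at 5.58. The pattern of Gata1 alone was closest to those of Cenpk (0.960), Ccna2 (0.954) and Kif22 (0.954), which act in cell division. That of Epor was closest to those of Scrn3 (0.950), Ptdss2 (0.947) and Slc25a51 (0.944).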

How the data were processed

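RNA was measured in 21 libraries from sorted mouse cells, LSK by flow sorting and CD11b+ by magnetic columns, with a stranded mRNA kit and paired-end reads. Per the labels and the study's methods, the authors trimmed reads with Trim Galore 0.6.5, aligned them with STAR 2.5.3a to GRCm38 (mm10) and deposited whole-number counts per Ensembl gene, 1 table per library, not normalized. The counting program, the annotation and the use of strand are not given in the sources used here. The labels list 2 MxCre libraries per fraction.

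The 8 members and the 12 gene lists (131 genes, of which 1, Ahsp, matched no identifier) were chosen with earlier results of these data known. Counts were filtered with filterByExpr (minimum count 10, minimum total 15), scaled by TMM and fitted once over 9 groups and 21 libraries (12 residual degrees of freedom) with the quasi-likelihood test of edgeR 4.0.16, with robust dispersion, in R 4.3.3. P-values were adjusted by Benjamini and Hochberg over all 19555 genes, with a threshold of 0.05, and log2 CPM used a prior count of 2. List sums are CPM of the library total without TMM. The spleen genotype contrasts and the S3 spleen against BM contrast were described only. Positions come from the GENCODE annotation of GRCm38.

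Named genes were the members, up to 3 per list with the largest called change in S3 against MxCre marrow and in BM CD11b+ against LSK controls (or, with none called, the 3 most abundant), and the genes most correlated with the members; some listed genes are not reported here. Alternatives were DESeq2 1.42.0, RLE factors, library size alone, no filter, only the groups compared, leaving out each library and a replicate block. Same-numbered control libraries did not deviate together across genotypes (r from -0.01 to 0.06 over 6 pairs), so numbers were not taken as pairing. Between fractions of 1 genotype these correlations ran from -0.31 to 0.66 over 19 pairs, and the block by S3 animal left the count of called members at 2. Each control group held 2 libraries, so its replicates 1 and 2 mirror each other. They give the same r, and the control pairs are therefore not all separate values. The script was tested on simulated data.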

Additional observations from a re-analysis of the deposited data

Results flagged for a closer look

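The difference of S3 from MxCre pointed in opposite directions in LSK and spleen CD11b+ cells for 2 members. For Slc4a1 every S3 LSK library lay below, and every S3 spleen library above, the MxCre libraries of its fraction, and the spleen difference of mean log2 CPM exceeded the LSK one by 8.84. For Trim10 the same held, and the gap was 10.54, which rests on 0 and 43 counts in the 2 spleen MxCre libraries. Of all tested genes, 28.9% were lower without overlap in S3 against MxCre LSK cells and 20.2% higher in S3 against MxCre spleen. The spleen differences alone were 5.75 for Slc4a1 and 8.26 for Trim10, and their direction was favoured by the choice of members. Neither difference between fractions was tested, because the members were picked on the spleen values.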

How the results depend on the processing

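Of the 792 alternative values compared for single members, 671 kept their direction and their side of the threshold, 36 lost and 33 gained a call and 52 changed sign. For BM CD11b+ against LSK controls, 6 members were called, but 3 with library size alone, 3 without the count filter, 3 with the block by animal or number, and 2 to 7 when 1 library was left out (2 without BM MxCre 2 or LSK MxCre 2, 3 without LSK MxCre 1 or either LSK Ptpn11D61Y/+ library). Slc4a1 and Trim10 were called in all of these. In the main fit 9544 of all genes were called in either direction. The count was 11139 with library size alone, 8831 without the filter and 9242 with the block. With 1 library left out it was 6846 to 9330, and 7282 to 7395 where that was an LSK library. Under that block Rhag, Klf1 and Gata1 were lost, Rhag at 3.17 (edgeR adjusted p = 0.114). The S3 contrast of BM CD11b+ with LSK had 2 calls, 1 without the filter and 1 to 3 with a library left out. Of all genes it had 5301 calls, 4264 without the filter and 2954 to 7175 with a library left out. Ptpn11D61Y/+ spleen against BM had 0 calls, but 8 with DESeq2 and 8 with only the groups compared. LSK S3 against MxCre had 0, but 3 with the 7 LSK libraries alone and 2 with only the groups compared, and LSK Ptpn11D61Y/+ against MxCre had 0, but 1, 2 and, with the replicate block by number, 2. The block by number is between libraries that share only a number, and it changed no call in BM. No paired analysis was possible because S3 and control libraries share no numbers, for the S3 contrasts between genotypes. The cause of these changes was not tested.

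Signs changed as follows. In BM CD11b+ S3 against MxCre, without both low libraries, Add2 was -0.21, Trim10 -0.30, Klf1 -0.28 and Gata1 -0.40, and Ermap was 0.0083 with DESeq2, 0.0075 with RLE, 0.11 with library size alone and 0.011 with only the groups compared. Without both, Ptpn11D61Y/+ against MxCre was -0.13 for Rhag and -0.21 for Gata1. The interaction was 0.15 for Add2 with library size alone, and 1.32 for Add2 and 1.98 for Rhag with the block. With 1 library left out, BM S3 against MxCre ran from -1.27 to 3.93 for Slc4a1, -0.95 to 4.24 for Add2, -0.95 to 3.45 for Ermap, -1.12 to 4.15 for Rhag, -1.03 to 3.64 for Trim10, -0.83 to 4.33 for Klf1, -0.95 to 4.08 for Gata1 and -1.15 to 1.50 for Epor. BM Ptpn11D61Y/+ against MxCre ran from -0.13 to 5.14 for Rhag and -0.21 to 4.81 for Gata1. LSK S3 against MxCre ran from -0.12 to 0.93 for Add2 and -0.17 to 0.72 for Rhag, and LSK Ptpn11D61Y/+ from -0.17 to 0.67 for Add2, -0.20 to 0.57 for Rhag and -0.051 to 0.40 for Klf1. S3 BM against LSK ran from -0.33 to 1.47 for Add2. The interaction ran from -1.40 to 3.78 for Add2, -1.92 to 2.48 for Ermap, -1.39 to 3.88 for Rhag, -1.65 to 3.51 for Klf1, -2.19 to 2.84 for Gata1 and -1.98 to 0.68 for Epor.

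Over all genes the calls moved by more than 1.5 times from 0 to 968 (DESeq2) and up to 2040 (without BM MxCre 2) for BM S3 against MxCre, and from 0 to 1884 and up to 2852 for BM Ptpn11D61Y/+. LSK S3 against MxCre went from 6 to 125 (DESeq2), 5652 (7 LSK libraries) and 4700 (groups compared) and 0 to 3 with a library left out, and LSK Ptpn11D61Y/+ from 12 to 103, 319, 2508 and 1653 (block), and 0 without either Ptpn11D61Y/+ library. S3 BM against LSK went from 5301 to 8436 without both low libraries and to between 2954 and 3480 without BM S3 540 or any LSK S3 library, Ptpn11D61Y/+ spleen against BM from 722 to 2569, 4265, 325 (block) and 0 to 69 with a library left out, and the interaction from 0 to 141 (DESeq2) and 438 (without BM MxCre 2). Totals differed up to 2.99-fold, and depth limits the spleen values of Add2, Rhag and Trim10, at 0 to 43 counts in MxCre. In spleen Ptpn11D61Y/+ 2 it also limits Rhag, at 2 counts, and Add2, at 7.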
